A study of Mus musculus with 6 samples.

Results

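The BCL2 family decides whether a cell opens its outer mitochondrial membrane and dies, and 10 of its genes were followed here in C2AS12 cells, a mouse myoblast line of C2 origin. Members were all probe sets annotated to a single one of the 10 gene symbols. This gave 15 probe sets for 9 genes, of 12422 probe sets without controls on the array and 8251 genes with a probe set of their own. Bnip3l was dropped, since no probe set carried its symbol alone. Of the 15 probe sets, 12 had a mean signal at or above the median of all probe sets (75.2) and entered the tests, and they covered all 9 genes. The other 3, for Bcl2, Bcl2l1 and Bcl2l11, averaged 21.9, 6.22 and 13.1 and are described by their values.

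Total RNA was measured on 6 arrays, in cells that had all received a recombinant adenovirus encoding p300, a coactivator of transcription that acetylates histones. The treatments were adenovirus for wild-type p300 with doxycycline (Dox), adenovirus for mutant p300, and adenovirus for wild-type p300 alone. Each was taken at 24 h in low-serum differentiation medium and at 0 h, before the medium change, and every combination has 1 array. The submitters give apoptotic death as the outcome with doxycycline and with mutant p300, and survival with wild-type p300. Which residue of p300 was mutated, and how doxycycline acts here, is not in the labels, and no array was of uninfected cells or of cells kept for 24 h without the medium change. The series text counts the 6 arrays as biological replicates, although each is the only array of its treatment and time, and no label names a culture. The p-values below therefore rest on the spread between arrays of different treatments or times, part of which may be technical. In bulk RNA, fewer cells of a kind and less RNA per cell cannot be told apart.

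The array medians lay between 68.7 and 78.05. Of 9 myoblast genes, Myod1, the myogenic determination factor, read 419.1 to 813.0 and Chrna1, a muscle acetylcholine receptor subunit, 451.4 to 1135.7, while Mef2c lay under the floor of 16.4 on all arrays. Among markers of other cell types, the leukocyte marker Ptprc and the epithelial marker Epcam did not exceed 16.3 on any array, while a probe set of Cd68, a macrophage marker, read 103.9 to 173.0 and Cdh1, an epithelial cadherin, 142.7 to 230.8. Values under the floor were set to it before log2 was taken, which touched none of the 12 tested member probe sets. No level was compared between probe sets of different genes, because the signal of a probe set also depends on its probes.

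Proteins of this family share short BCL2 homology (BH) domains. The anti-apoptotic members BCL2, BCL-xL (Bcl2l1), BCL-w (Bcl2l2) and MCL1 hold their partners in check, the effectors BAX and BAK (Bak1) form the pore, and BH3-only proteins such as BIM (Bcl2l11), BID and BAD sense stress and tip the balance. BNIP3 is an atypical relative of the outer mitochondrial membrane that also serves as a mitophagy receptor. In myoblast cultures some cells die when serum is withdrawn and the rest differentiate. Much of the control of these proteins is by phosphorylation, cleavage and turnover, which RNA does not measure.

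The RefSeq promoter table (GRCm38.p6, 250 bases before to 50 after each annotated start) held 13 promoters for the 9 genes. They were searched on both strands for GTAAACA, a core bound by FOXO factors, and for ACGTG and GCGTG, cores bound by hypoxia-inducible factors. GTAAACA was in 1 of the 13, against 3.65% of all 32851 promoters, and ACGTG or GCGTG in 6, against 43.8% of all. CAGCTG, an E-box bound by myogenic factors, was in 1, against 16.3% of all. Bcl2l11 is shown because it had the largest time change of the 12, Bnip3 because it is known as a hypoxia target, and Bid because it differed most from wild-type p300 at 24 h. Capitals mark the FOXO and hypoxia cores on either strand, and a core read from the other strand appears as its reverse complement.
Bcl2l11, first start (chr2:128125788-128126087, plus strand): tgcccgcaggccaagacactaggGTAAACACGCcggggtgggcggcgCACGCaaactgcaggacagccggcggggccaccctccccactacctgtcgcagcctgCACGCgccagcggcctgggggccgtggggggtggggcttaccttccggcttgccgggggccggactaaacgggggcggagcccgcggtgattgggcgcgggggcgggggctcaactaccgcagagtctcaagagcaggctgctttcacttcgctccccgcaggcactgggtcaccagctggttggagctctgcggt
Bnip3 (chr7:138909457-138909756, minus strand): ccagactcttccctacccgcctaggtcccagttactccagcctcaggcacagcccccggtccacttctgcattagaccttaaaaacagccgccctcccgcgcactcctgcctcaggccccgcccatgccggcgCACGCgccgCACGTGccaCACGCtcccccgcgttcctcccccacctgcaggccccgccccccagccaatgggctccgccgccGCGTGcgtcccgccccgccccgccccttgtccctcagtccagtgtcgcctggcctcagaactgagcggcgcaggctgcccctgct
Bid (chr6:120916775-120917074, minus strand): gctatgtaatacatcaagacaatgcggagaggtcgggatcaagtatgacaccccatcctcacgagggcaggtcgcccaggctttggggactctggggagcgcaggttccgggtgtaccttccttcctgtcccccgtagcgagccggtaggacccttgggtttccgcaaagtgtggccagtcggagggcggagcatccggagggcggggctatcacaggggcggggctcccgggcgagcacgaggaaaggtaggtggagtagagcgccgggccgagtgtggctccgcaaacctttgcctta
The first Bcl2l11 promoter held GTAAACA at position -227 from the start and 3 GCGTG cores, 1 of which overlaps GTAAACA, and the only CAGCTG of the 13. A second annotated start of Bcl2l11 held none of the searched cores. The Bnip3 promoter held 2 ACGTG and 3 GCGTG cores, the most of the 13, and the ACGTG cores overlap each other as a palindrome. The promoters of Bid, Mcl1, Bcl2, Bcl2l2 and Bak1 held none of these cores. A match describes the letters of the window and is not a binding site.

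Over 24 h in differentiation medium, a Bcl2l11 probe set rose 2.02-fold, with a like change in every treatment, and a Bcl2 probe set 1.57-fold. The tests called no other member probe set, the other tested ones of these genes included. The Bcl2 call was lost under several other settings of the analysis. The question was what changed over 24 h in this medium whatever the treatment. With no array kept for 24 h without the medium change, effects of medium and of time cannot be told apart. The comparison was fitted with limma on log2 signal with treatment as a block, and a probe set was called at a Benjamini-Hochberg adjusted p under 0.05 over all 6212 probe sets tested. Of the 12 member probe sets, 2 were called higher and 0 lower, against 7.24% higher and 9% lower of all probe sets tested. At 2 of 12 the share called is near the 16.2% called in either direction among all. The median change of the 12 was 0.11 on the log2 scale, with 8 positive and 4 negative, and that of all 6212 was 0.00, with 3156 positive and 3056 negative. Of all, 450 were called higher and 559 lower, and with scaling to spike-in controls, which moved the median of all to -0.12 and that of the 12 to -0.016, 141 and 478.

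**Figure D1:**
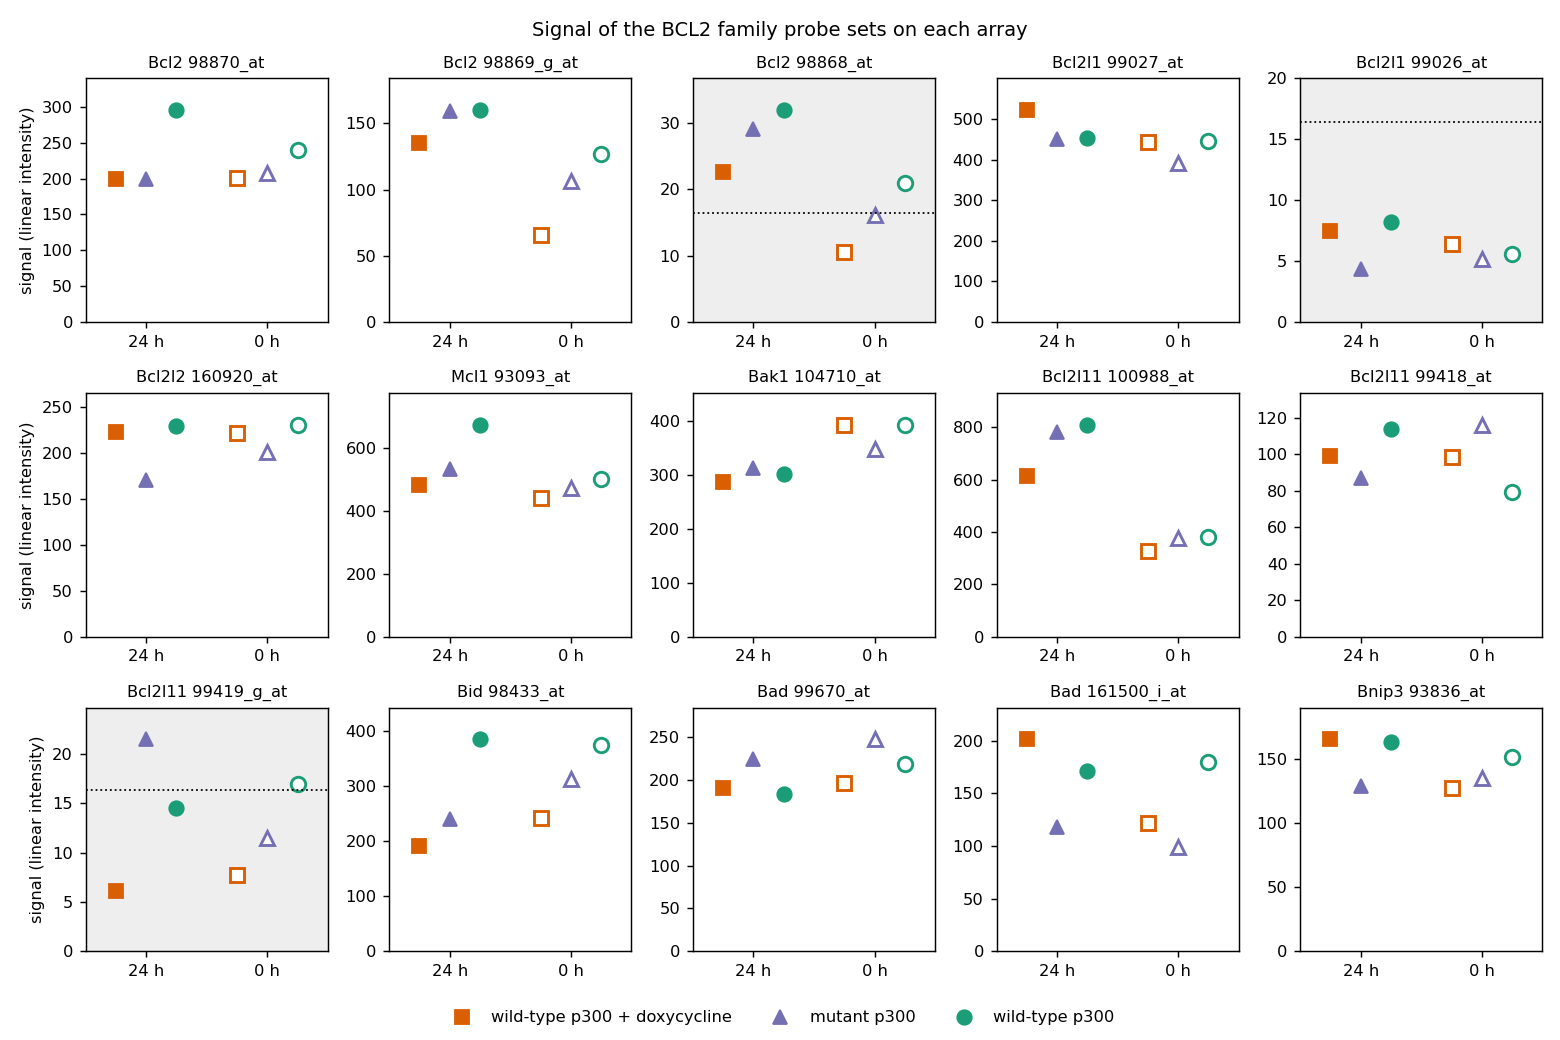
Signal (linear intensity) of the 15 member probe sets on each of the 6 arrays, with 24 h (filled) left of 0 h (open) and treatments by colour and shape. Grey panels are the 3 probe sets that did not enter the tests, with the floor of 16.4 as a dotted line. Bcl2l11 100988_at lies between 613.8 and 810.2 at 24 h, above all arrays at 0 h, and Bid 98433_at is lower with doxycycline and mutant p300 than with wild-type p300 at both times.

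Among anti-apoptotic genes, Bcl2, the founding member, had 3 probe sets that were designed from the same sequence record and did not move alike. Probe set 98869_g_at read 135.6 with doxycycline, 159.6 with mutant p300 and 160.0 with wild-type p300 at 24 h, against 65.9, 106.7 and 126.8 at 0 h in the same order. All 24 h arrays lay above all 0 h arrays, and the lowest array was doxycycline at 0 h. On the log2 scale it rose by 0.65 ± 0.36 (SD over the treatments, n = 3; limma adjusted p = 0.0460). The ending _g_at marks a probe set that may detect related transcripts. The adjusted p ran from 0.0390 to 0.294 over the alternative settings and from 0.0107 to 0.219 over fits without 1 array. The call was lost without the filter, with scaling to the spike-in controls (0.194), without the variance trend (0.0540), without the treatment block (0.150), and without any of the doxycycline or mutant arrays.

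Bcl2 probe set 98870_at read 199.4 with doxycycline, 199.1 with mutant p300 and 295.1 with wild-type p300 at 24 h. At 0 h it read 201.3, 207.8 and 239.5 in the same order. Its change was 0.08 ± 0.20 and did not pass the test (limma adjusted p = 0.739). With wild-type p300 it changed by 0.30 and with doxycycline and mutant p300 by -0.01 and -0.06. The mean was -0.046 with scaling to the spike-in controls and -0.038 without either wild-type array. The third probe set, 98868_at, read 22.6, 29.0 and 31.9 at 24 h against 10.6, 16.2 and 21.0 at 0 h, again with doxycycline, mutant and wild-type p300 in that order, and lay at or under the floor in 2 of the 3 arrays at 0 h. In each of the 3 treatments 98868_at and 98869_g_at changed upward, while 98870_at shared that sign in 1.

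Mcl1, which encodes a short-lived anti-apoptotic protein, read 483.0 with doxycycline, 533.0 with mutant p300 and 674.5 with wild-type p300 at 24 h, against 441.1, 474.1 and 503.0 at 0 h. It was higher at 24 h in each treatment, but the groups overlapped, since doxycycline at 24 h lay below wild type at 0 h. The change of 0.24 ± 0.16 (SD, n = 3) did not pass (limma adjusted p = 0.142). Bcl2l1 (BCL-xL) read 521.6, 449.8 and 453.8 at 24 h against 442.4, 392.1 and 444.8 at 0 h, a change of 0.15 ± 0.11 that did not pass (adjusted p = 0.320). Its 95% interval ran from -0.07 to 0.38. Its second probe set, 99026_at, stayed at 4.4 to 8.2, under the floor throughout. Bcl2l2 (BCL-w) stayed between 170.6 and 231.1, with a change of -0.08 ± 0.14 (adjusted p = 0.708) and an interval of -0.36 to 0.20.

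The effector gene Bak1, which encodes the pore-forming protein BAK, read 287.4 with doxycycline, 313.3 with mutant p300 and 302.1 with wild-type p300 at 24 h, against 393.6, 349.1 and 392.4 at 0 h. It was the only 1 of the 12 with all 24 h arrays below all 0 h arrays, a pattern that 15.5% of all tested probe sets showed. The change of -0.33 ± 0.15 (SD, n = 3) missed the threshold (limma adjusted p = 0.0734, 0.0732 to 0.244 over the alternatives).

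Among BH3-only genes, Bcl2l11, which encodes BIM, had the largest change. Probe set 100988_at read 613.8 with doxycycline, 781.0 with mutant p300 and 810.2 with wild-type p300 at 24 h, against 328.5, 377.7 and 381.6 at 0 h in the same order. The groups did not overlap, and 3 of the 12 member probe sets had all 24 h arrays above all 0 h arrays, against 12.7% of all tested. It rose by 1.01 ± 0.10 (SD, n = 3; limma adjusted p = 0.000294), or 2.02-fold, with changes of 0.90, 1.05 and 1.09 in the 3 treatments. Fits without 1 array gave 0.97 to 1.07 with adjusted p of at most 0.00728. Without the filter on dim probe sets, where limma called 0 of 12422 (2030 at an unadjusted p under 0.05), its adjusted p was 0.0826, the highest over the alternatives (lowest 0.000254).

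The other Bcl2l11 probe sets were designed from a different sequence record and did not share this rise. Probe set 99418_at read 98.9 with doxycycline, 87.1 with mutant p300 and 113.7 with wild-type p300 at 24 h, against 98.5, 116.1 and 79.5 at 0 h. It changed by 0.01, -0.41 and 0.52 in these treatments, a mean of 0.04 ± 0.47 that did not pass (limma adjusted p = 0.936), and was -0.086 with spike-in scaling and -0.20 without either wild-type array. The change of 100988_at exceeded that of 99418_at by 0.90, 1.46 and 0.57 in the 3 treatments, so the sign of this difference was the same in each. Probe set 99419_g_at read between 6.1 and 21.5 and lay under the floor on 4 of 6 arrays. Which BIM transcripts each probe set detects is not given in the sources used here.

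Bid encodes a BH3-only protein that caspase-8 cleaves into an active form. It read 191.3 with doxycycline, 240.4 with mutant p300 and 385.3 with wild-type p300 at 24 h, against 241.5, 314.2 and 374.8 at 0 h. It changed by -0.34 and -0.39 with doxycycline and mutant p300 and by 0.04 with wild-type p300, a mean of -0.23 ± 0.23 that did not pass (limma adjusted p = 0.250). Bad, whose protein is kept inactive by survival kinases, had probe sets from different records that disagreed in sign. Probe set 99670_at changed by -0.14 ± 0.10 (adjusted p = 0.466), lower at 24 h in each treatment. Probe set 161500_i_at, whose ending marks a design with fewer probes than usual, changed by 0.30 ± 0.40 (adjusted p = 0.295), with 0.72 for doxycycline, 0.25 for mutant p300 and -0.07 for wild-type p300. Its mean was 0.091 without either doxycycline array and 0.49 without either wild-type array.

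Bnip3 varied least among the 15 probe sets, 1.30-fold between its highest and lowest array. It read 165.3 with doxycycline, 128.8 with mutant p300 and 163.2 with wild-type p300 at 24 h, against 127.3, 135.3 and 151.8 at 0 h. Its change of 0.14 ± 0.23 did not pass (limma adjusted p = 0.597), with an interval of -0.21 to 0.49, and was 0.017 without either doxycycline array and 0.24 without either mutant array.

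**Figure D2:**
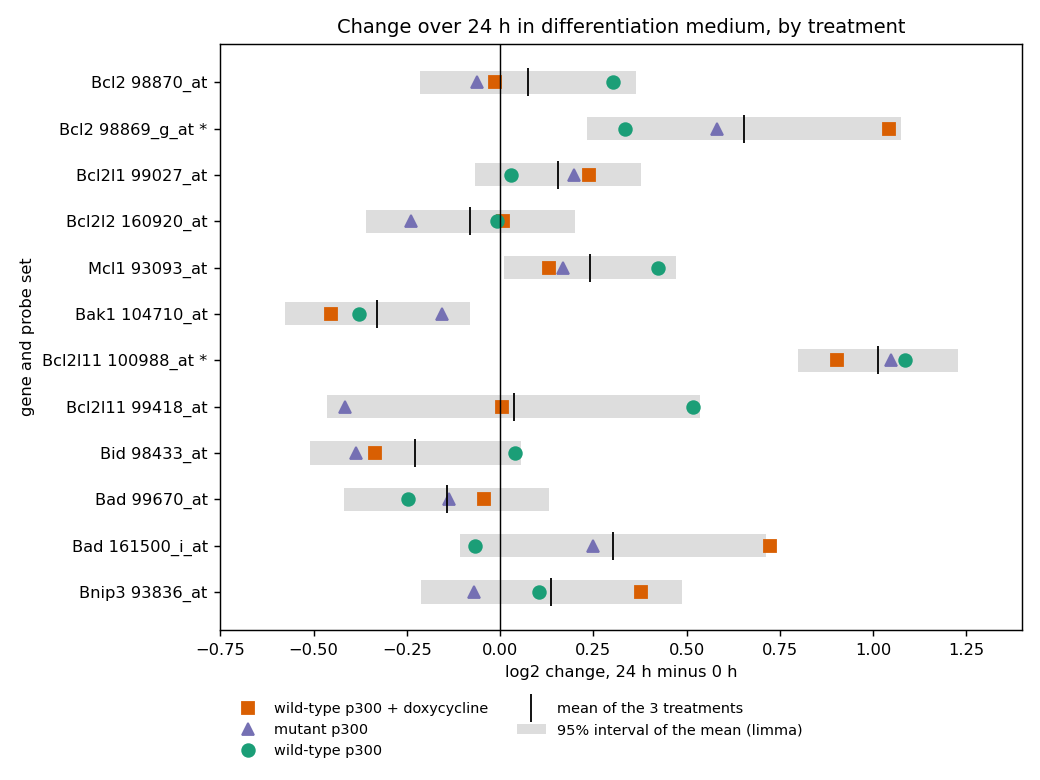
Change over 24 h (log2, 24 h minus 0 h) of the 12 tested probe sets, by treatment, with the mean (black tick) and its 95% interval from limma (grey bar). Asterisks mark an adjusted p under 0.05, reached by Bcl2l11 100988_at at 1.01 and Bcl2 98869_g_at at 0.65. Probe sets of the same gene lie in neighbouring rows and differ for Bcl2, Bcl2l11 and Bad.

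The probe sets most like Bcl2l11 100988_at over the 6 arrays, by Pearson correlation of log2 signal among tested probe sets of other genes, were those of Hes6, Cadm1 and Ralgds, with r = 0.996, 0.989 and 0.989. Hes6, a transcription factor of the Hes family, read 243.7, 266.5 and 270.7 at 24 h with doxycycline, mutant and wild-type p300, against 168.5, 179.4 and 186.2 at 0 h. For Bcl2 98869_g_at they were Vrk3, Bag3 and Ubl3, with r = 0.996, 0.982 and 0.976. Each r has 6 points that share the arrays and the medium change.

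The doxycycline and mutant arrays were compared with the wild-type arrays to ask which members go with the outcome, and no member was called. At 24 h, 10 of the 12 probe sets had a lower mean with doxycycline and mutant p300 than with wild-type p300, among them Bid, Bcl2 98870_at and Mcl1. Of all 6212, 43.9% were lower in this comparison. By limma 0 of the 12 were called, against 0.724% of all called lower and 0.0483% called higher. At an unadjusted p under 0.05, 3 of the 12 were lower and 0 higher, against 5.91% lower and 5.57% higher of all. The median difference of the 12 was -0.19 on the log2 scale, and that of all 0.04.

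In Bid the doxycycline array at 24 h was at 0.496 of the wild-type signal and the mutant array at 0.624. The log2 difference from wild-type p300 was -0.85 (95% interval -1.39 to -0.30, limma adjusted p = 0.214). At 0 h it was -0.44 (adjusted p = 0.999), -0.25 if the 0 h doxycycline array was left out and -0.63 if the 0 h mutant array was, and over both times -0.64 (adjusted p = 0.137). The fit over both times had no treatment block and counted each treatment's 0 h and 24 h arrays as separate samples. The doxycycline and mutant arrays were both below wild type at each time. Without the mutant array at 24 h the difference was -1.01 with adjusted p = 0.0136, but that fit sets 1 doxycycline array against 1 wild-type array and takes its spread from the arrays at 0 h. The adjusted p was 0.0136 to 0.141 over the fits without 1 array and 0.00962 to 0.530 over the other alternatives.

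In Bcl2 98870_at the doxycycline and mutant arrays at 24 h were at 0.676 and 0.675 of the wild-type signal. The difference was -0.57 (interval -1.03 to -0.10, limma adjusted p = 0.324) at 24 h and -0.23 (adjusted p = 0.999) at 0 h. The probe set 98869_g_at of the same gene was -0.12 at 24 h (adjusted p = 0.943) and -0.60 at 0 h (adjusted p = 0.999), so the probe sets shared the sign at both times but not the time at which the gap was wider. In Mcl1 the difference was -0.41 (interval -0.81 to -0.01, adjusted p = 0.420) at 24 h and -0.14 (adjusted p = 0.999) at 0 h. For Bcl2l11 100988_at it was -0.23 at 24 h (interval -0.69 to 0.24, adjusted p = 0.749), with 0.758 of the wild-type signal in the doxycycline array and 0.964 in the mutant array.

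Bcl2l1 and Bad 99670_at were the 2 probe sets with a higher mean in the dying cells at 24 h, at 0.09 (interval -0.34 to 0.53) and 0.17 (interval -0.38 to 0.72), and neither passed. The difference for Bak1 was -0.01 (interval -0.45 to 0.43). At both times, 6 of the 12 read lower in the doxycycline and mutant arrays than in wild type, against 14.6% of all tested. They were the probe sets for Bcl2 (98870_at and 98869_g_at), Bcl2l2, Mcl1, Bcl2l11 (100988_at) and Bid. None of the 12 read higher in the doxycycline and mutant arrays at both times, against 20.4% of all. The 6 are both anti-apoptotic and pro-apoptotic, they all rest on the same pair of wild-type arrays, and 98869_g_at at 24 h was 159.6 in the mutant array against 160.0 in wild type.

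**Figure D3:**
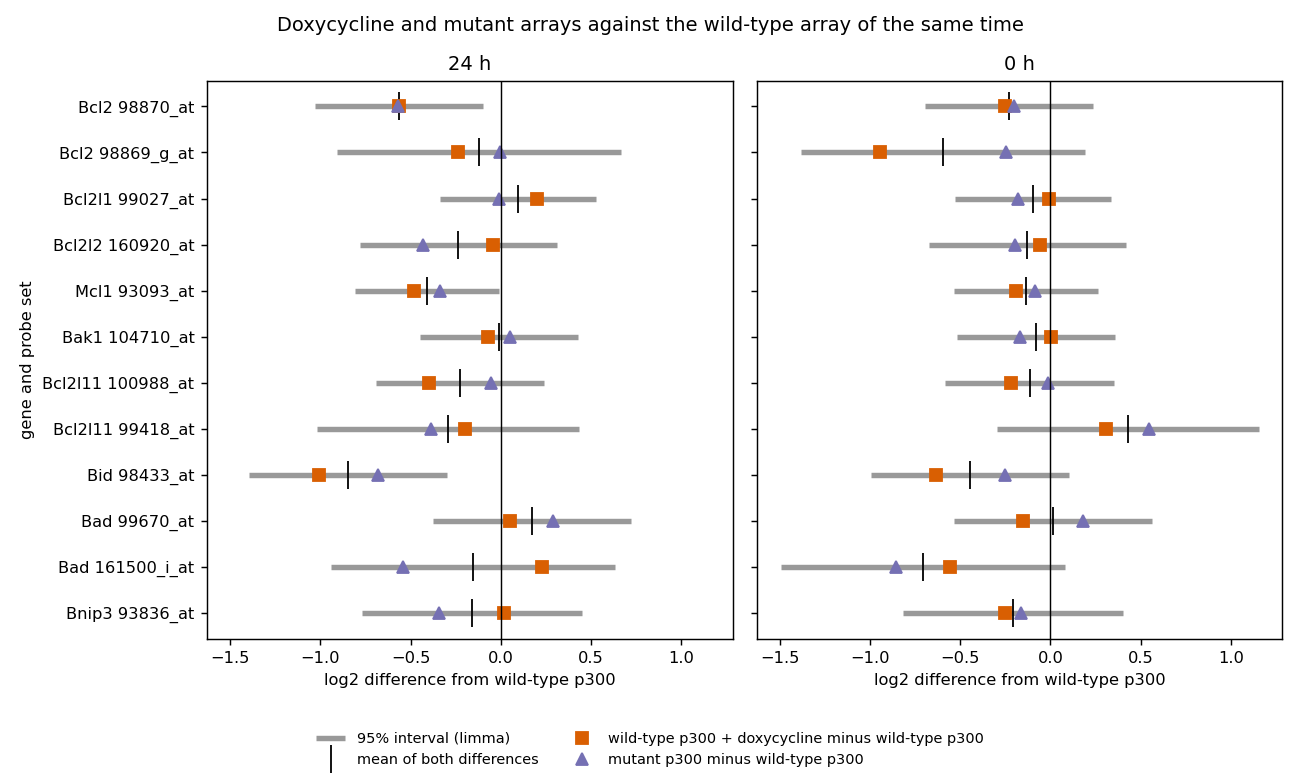
Log2 difference of the doxycycline and mutant arrays from the wild-type array of the same time, at 24 h (left) and 0 h (right), for the 12 tested probe sets, with the mean (black tick) and its 95% interval from limma (grey line). Bid, Bcl2 98870_at and Mcl1 have intervals below 0 at 24 h, at means of -0.85, -0.57 and -0.41, and none has an adjusted p under 0.05.

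Other measures moved with the outcome at 24 h. The mean log2 signal of 9 spike-in control probe sets, centred over the 6 arrays, was 0.13 with doxycycline and 0.23 with mutant p300, against -0.18 with wild-type p300. With scaling to these controls, all 12 member probe sets were lower at 24 h, with 86.7% of all probe sets lower and a median shift of all of -0.32. Bid at -1.21 (adjusted p = 0.00962), Bcl2 98870_at at -0.93 (0.0367) and Mcl1 at -0.78 (0.0427) were then called by limma. Of all 6212, 420 were called lower and 6 higher with this scaling, against 45 and 3 without it. Quantile normalization left 10 of the 12 lower and called 0.

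The 3' to 5' signal ratio of the actin control, a sign of RNA quality, was 1.45 and 1.49 with doxycycline and mutant p300, against 1.33 with wild-type p300, while the Gapdh ratio, at 0.859 and 0.905 against 0.875, lay on both sides of the wild-type value. Of 9 tested myoblast probe sets, the dying cells had 4 higher and 5 lower, with a median of -0.05 and 0 called by limma. Among them Myod1 read 813.0 and 732.1 against 419.1 (limma adjusted p = 0.0898) and Chrna1 1037 and 1074.7 against 1135.7. The tested probe set of Cdh15 read 481.8 and 430.6 against 261.8 (limma adjusted p = 0.361). The summed signal of 6 probe sets of 5 endothelial markers, none bright enough to be tested, was 134 and 80.9, against 232.4 with wild-type p300. Tek read 4.0 and 2.8 against 116.3, and without it the sums were 130 and 78.1 against 116.1. Kdr read 39.9 and 25.6 against 24.8, and Cdh5 and Tie1 stayed under the floor on all arrays. The sums were 237.3 and 218.5 against 269.5 for 12 macrophage and leukocyte probe sets, and 248.1 and 229 against 247.8 for 5 epithelial probe sets. For 3 adipocyte probe sets, none bright enough to be tested, the sums were 64.6 and 75.8 against 107.3. The part of RNA quality and of these markers in the differences was not tested.

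Whether the change over 24 h in the medium differed between dying and surviving cells was tested as the difference between the 24 h and 0 h effects. By limma 0 of the 12 member probe sets and 0 of all 6212 were called, with 0 and 197 (3.17%) at an unadjusted p under 0.05. It was -0.40 for Bid (interval -1.18 to 0.37), -0.34 for Bcl2 98870_at (interval -0.997 to 0.320) and -0.27 for Mcl1 (interval -0.84 to 0.29). The widest was Bcl2l11 99418_at at -0.72, with an interval of -1.75 to 0.30. At 0 h alone, 0 of the 12 were called, with 0 of 12 and 262 (4.22%) of all 6212 at an unadjusted p under 0.05, and over both times 0 of the 12 against 0.531% of all, with 3 of 12 and 852 (13.7%) of all at an unadjusted p under 0.05.

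Doxycycline and mutant p300, the treatments with the same outcome, were set against each other over both times, and limma called 0 of the 12 and 0 of all probe sets. At an unadjusted p under 0.05 there were 3 of the 12, against 13.2% of all. Bad 161500_i_at was higher with doxycycline by 0.54 (interval 0.03 to 1.04, adjusted p = 0.360), at 201.3 against 117.8 with mutant p300 at 24 h and 122.0 against 99.2 at 0 h. It was 0.22 if the 24 h doxycycline array was left out and 0.85 if the 0 h one was. Bcl2l11 100988_at differed by -0.27 (interval -0.54 to -0.01, adjusted p = 0.364) and Bid by -0.35 (interval -0.70 to -0.01, adjusted p = 0.366), both lower with doxycycline at each time.

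Genes tied to the family by function or by regulation were grouped in 6 lists. Over 24 h part of the autophagy genes rose and part of the hypoxia targets fell. The counts of the lists stand against 7.24% called higher and 9% called lower among all 6212 probe sets. Of 24 autophagy probe sets for 19 genes, 7 were called higher, for 6 genes, and 0 lower, which left 17 without a call, and their median change was 0.25. Map1lc3a, whose lipid-bound protein coats the autophagosome and is bound by mitophagy receptors such as BNIP3, read 1024.5, 1109.1 and 1102.1 at 24 h with doxycycline, mutant and wild-type p300, against 425.3, 446.5 and 409.9 at 0 h. It rose by 1.34 ± 0.08 (SD, n = 3; limma adjusted p = 5.15e-05). A probe set of Ctsb, a lysosomal protease, rose by 0.74 ± 0.35, but the other tested Ctsb probe sets, at 0.17 ± 0.13 (adjusted p = 0.295) and 0.26 ± 0.09 (adjusted p = 0.144), did not pass. Uvrag, which binds beclin 1, rose by 0.62 ± 0.32, and Lamp2, a lysosomal membrane protein, by 0.61 ± 0.13 and 0.32 ± 0.02 in its tested probe sets.

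Of 22 probe sets of hypoxia targets for 18 genes, 7 were called lower and 0 higher, leaving 15 without a call, at a median of -0.11, while Bnip3, also known as a hypoxia target, was not called. Higd1a fell by 0.76 ± 0.21, the lactate dehydrogenase gene Ldha by 0.70 ± 0.08, the hexokinase gene Hk1 by 0.54 ± 0.28 and the glycolytic enzyme gene Tpi1 by 0.52 ± 0.07. The Higd1a probe set was near the filter and the threshold, with a mean signal of 78.6 and limma adjusted p = 0.0470. In the list of binding partners and modifiers, 1 of 35 probe sets rose and 1 fell. Becn1, whose protein beclin 1 is bound by BCL2, rose by 0.38 ± 0.19 and a probe set of Bag2, a cochaperone, fell by 0.41 ± 0.19, while another changed by -0.27 ± 0.17 without passing (adjusted p = 0.125).

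Among 16 probe sets of the mitochondrial death pathway, 1 fell and 15 did not pass. It was Vdac3, a channel of the outer mitochondrial membrane, at -0.45 ± 0.11. Cycs, which encodes cytochrome c, changed by -0.47 ± 0.08 and did not pass (limma adjusted p = 0.0649), nor did Apaf1, the apoptosome scaffold, at 0.31 ± 0.09 (adjusted p = 0.155). Of 10 probe sets for transcription factors that are known to regulate family genes, 1 rose, Stat3 by 0.68 ± 0.12, while a second Stat3 probe set changed by 0.35 ± 0.18 without passing (adjusted p = 0.0521). Foxo3, whose protein is known to activate Bcl2l11, changed by 0.38 ± 0.13 without passing (adjusted p = 0.0734). The remaining BCL2 relatives had 2 tested probe sets, Bok at -0.20 ± 0.37 and Bcl2l13 at -0.22 ± 0.12, and neither passed. At 24 h none of the 109 probe sets of these lists was called between dying and surviving cells, and 11 (10.1%) had an unadjusted p under 0.05, near the 11.5% of all probe sets.

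**Figure D4:**
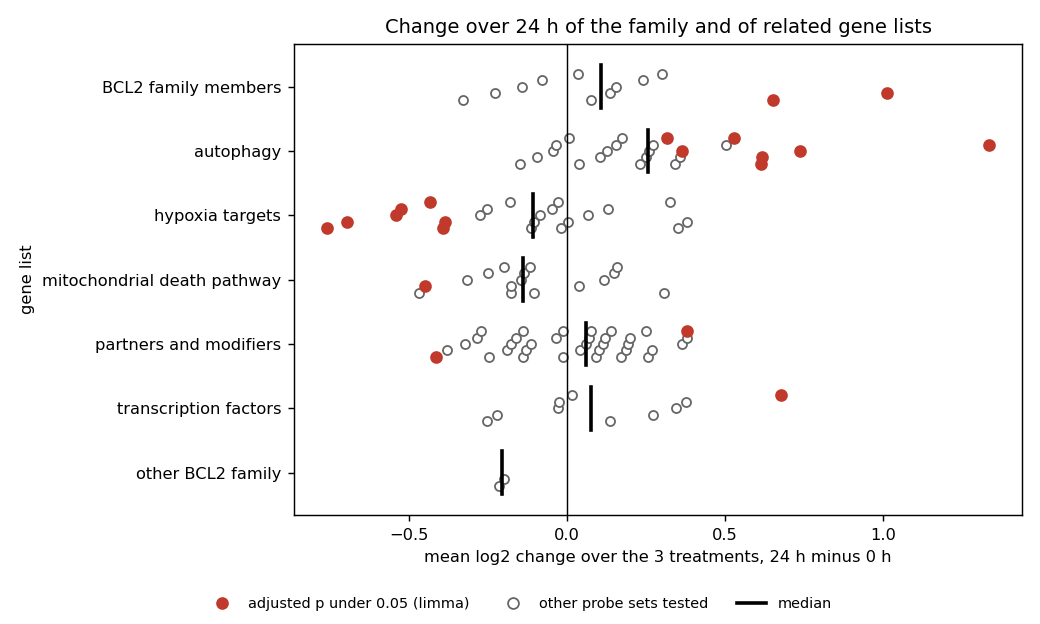
Mean log2 change over 24 h across the 3 treatments of each tested probe set in the BCL2 family and in 6 related gene lists, with filled points at an adjusted p under 0.05 and a bar at each median. Autophagy probe sets that were called lie to the right of 0 and called hypoxia targets to the left, with medians of 0.25 and -0.11.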

How the data were processed

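The deposited values are linear signal intensity for each probe set, made with MAS5 per the submitters' processing notes, which name no version here. The 66 control probe sets were left out, leaving 12422 of 12488. Trimmed means (2nd to 98th percentile) were 200.1 on each array, so the values were not rescaled. Gene names came from the platform's probe annotation, which named 1 gene for 10833 probe sets, several for 396 and none for 1193. Probe sets with a mean signal of at least 75.2 were tested, with values under 16.4, the 25th percentile, raised to it before log2.

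All 6212 tested probe sets entered limma 3.58.1 under R 4.3.3 (lmFit, then eBayes with a variance trend, 2-sided), with Benjamini-Hochberg adjustment. The time effect (24 h minus 0 h) had treatment as a block, and doxycycline minus mutant came from the same fit (2 residual degrees of freedom). The effect over both times (mean of doxycycline and mutant minus wild type) had time as a term (3) and no treatment block. Its p-values therefore count each treatment's 0 h and 24 h arrays as separate samples, although survival comes from wild-type p300 alone. The effects at 24 h and 0 h and their difference came from 1 mean per outcome and time (2), which takes the spread of the single wild-type array to equal that of the rest. The fits of the time effect and of the effect over both times were checked on simulated data with known changes. The simulated arrays were independent, so this does not bear on counting a treatment's arrays as separate samples. For the effect over both times only the estimated changes were checked, not the p-values. Alternatives were no filter, log2(value + 32) without a floor, quantile normalization, spike-in scaling, no variance trend, no treatment block (time effect alone) and each array left out (the effects at 24 h and 0 h and their difference: doxycycline and mutant arrays alone). Precision is limited by having only 6 arrays.

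The members, lists and tests were chosen with earlier results of these data known. All members are named, up to 4 called genes per list by size of change, and the 3 most similar probe sets for each called member. Other list genes were chosen after their values were seen.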

Additional observations from a re-analysis of the deposited data

How the results depend on the processing

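Of 12 member probe sets, the time effect called 2. It called 0 without the filter, 1 with spike-in scaling, 1 without the variance trend, 1 without the treatment block and 1 to 2 with 1 array left out. Bcl2l11 100988_at was lost only without the filter. The effect over both times called 0 of the members, and 1 (Bid) with spike-in scaling. The effect at 24 h called 0, 3 with spike-in scaling, and 0 to 1 with 1 array left out (1, Bid, without the mutant array at 24 h). The effect at 0 h, the difference between the times and doxycycline minus mutant p300 called 0 of the members under each alternative run for them. The treatment block was dropped for the time effect alone. For the effects at 24 h and 0 h and their difference the 4 doxycycline and mutant arrays were left out in turn. The wild-type arrays were not, since the shared fit of these effects needs a survival array at each time.

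Among all probe sets, the time effect called 1009, against 0 without the filter, 619 with spike-in scaling, 514 without the treatment block and 479 to 1283 with 1 array left out. The effect over both times called 33, against 10 without the filter, 237 with spike-in scaling, 1 without the variance trend and 0 to 50 with 1 array left out. The effect at 24 h called 48, against 192, 426, 11 and 161 to 351 in the same order. The effect at 0 h called 0, against 126 without the filter, 5 with spike-in scaling and 18 to 38 with 1 array left out. The difference between the times called 0, against 245, 1 and 6 to 43 in that order, and doxycycline minus mutant p300 called 0, against 3, 15 and 0 to 263. Leaving out an array also lowers the residual degrees of freedom. The cause of these moves was not tested.

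The time change of Bcl2 98870_at (0.08) was -0.046 with spike-in scaling and -0.038 to 0.14 with 1 array left out. That of Bcl2l11 99418_at (0.04) was -0.086 with spike-in scaling and -0.20 to 0.26 with 1 array left out. No paired analysis by replicate number was possible because each treatment and time has 1 array and the labels give no replicate numbers. Signal near the floor limits the 3 dim member probe sets.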

Other observations

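Relatives of the family under the filter on dim signal were read by value. Bik, which encodes a BH3-only protein of the endoplasmic reticulum, read 13.9 with doxycycline, 10.7 with mutant p300 and 52.6 with wild-type p300 at 24 h. At 0 h it read 10.5, 8.3 and 9.6 in the same order, so that the wild-type array at 24 h was the only 1 of 6 above the floor of 16.4. Bcl2l10 had 2 probe sets between 32.3 and 78.6, and Hrk stayed at or under 11.9 on all arrays. None of these was tested.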
